A study of Mus musculus with 12 samples.

Results

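Several proteins in neurons bind the serotonin receptor 5-HT6R or carry its signal, and the genes of 9 of them were followed here: Cdk5, its activators Cdk5r1 and Cdk5r2, Fyn, Nf1, Cops5, Gprin1, Dpysl2 and Map1b. They were chosen by name, as reported partners of the receptor, with earlier results of these data known. A row of the count table was taken where its Ensembl gene ID carries 1 of these symbols. Each symbol matched exactly 1 of 55401 gene IDs, and all 9 passed the filter on low counts that left 21958 genes for testing. The medial prefrontal cortex (mPFC) of male mice was taken when extinction of a conditioned place preference (CPP) had run for 2 weeks: an animal that has come to seek the chamber where it got a drug gradually stops doing so. Each of 3 groups had 4 libraries: AAV-5-HT6Rkd-Morphine, with an adeno-associated virus (AAV) that knocks down 5-HT6R and morphine; AAV-Scramble-Morphine, with a control virus of scrambled sequence and morphine; and AAV-Scramble-Saline, with the control virus and saline. All mice therefore carried a virus, and no group combined the knockdown with saline. The labels give no strain, age, viral promoter or infected cell type, and do not say that the libraries came from separate animals. The p-values therefore rest on the spread among samples, and that spread may be technical.

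5-HT6R couples to the stimulatory G protein and raises cyclic AMP, and much of it sits in the primary cilium, a small antenna on the neuronal cell body. Its intracellular parts also hold proteins, some of which act without serotonin. The kinase Cdk5 phosphorylates the receptor and drives outgrowth of neurites, and neurofibromin keeps the cyclic AMP signal of the receptor active. The kinase Fyn and the protein Jab1 bind the tail and loop of the receptor. Gprin1 and the microtubule proteins CRMP2 (gene Dpysl2) and MAP1B act further towards the growing neurite. All of these partnerships are between proteins, whereas the values below are RNA levels.

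All 15 markers of cortical excitatory neurons and all 12 of cortical interneurons averaged at least 1 CPM, a count scaled to the size of its library. So did all 10 of striatal projection neurons and all markers of the other cell types read except ependyma and choroid plexus, with 2 of 7, so this level does not tell cortex from striatum. Total counts per library ran from 41483220 to 65739423. The targeted gene Htr6, which encodes 5-HT6R, had 4.49, 5.30, 3.82 and 5.46 CPM with knockdown and morphine, against 5.30, 5.16, 4.82 and 5.58 CPM with scramble and morphine and 5.45, 6.92, 4.35 and 7.98 CPM with scramble and saline. The 3 groups overlapped, and Htr6 therefore does not check the labels. Its log2 fold change stood at -0.13 for knockdown morphine over scramble morphine (SE 0.18, edgeR adjusted p = 0.823). The ribosomal RNA locus CT010467.1 took 4.57 to 9.38% of counts with knockdown and morphine, against 2.38 to 3.04% with scramble and morphine and 3.58 to 5.63% with scramble and saline. On the first principal component of the genes with a mean of at least 5 CPM, which held 27.1% of their variance, 3 libraries stood apart: knockdown replicates 1 and 3, at -24.1 and -18.6, and scramble saline replicate 4, at -17.6. The other 9 libraries lay at -5.15 or higher.

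The stretches upstream of Cdk5r2, Fyn and Gprin1 are shown because the pairs among these 3 members had Pearson r of 0.73 to 0.77 over 9 libraries, as described further on. Other pairs of members had r of like size, no pair passed after adjustment, and the relation of Cdk5r2 to Gprin1 rests on 2 libraries. The sequences come from the promoter table of RefSeq on GRCm38.p6, the assembly of mm10, which held Cdk5r2, Fyn, Nf1, Gprin1 and Map1b, 5 of the 9 members. Bases are given 5′ to 3′ on the strand of the gene, and only the part of each window outside annotated exons is printed. Capitals mark matches, on either strand, to the half-site of the cAMP response element (TGACG) or to the GC box bound by Sp factors (GGGCGG). The printed stretches cover chr1:74854779-74854933 on the plus strand for Cdk5r2, chr10:39369549-39369763 on the plus strand for Fyn and chr13:54749875-54750124 on the minus strand for Gprin1.
Cdk5r2: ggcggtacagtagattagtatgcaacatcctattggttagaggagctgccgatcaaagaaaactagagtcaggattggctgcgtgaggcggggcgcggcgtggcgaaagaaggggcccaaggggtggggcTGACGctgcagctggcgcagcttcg
Fyn: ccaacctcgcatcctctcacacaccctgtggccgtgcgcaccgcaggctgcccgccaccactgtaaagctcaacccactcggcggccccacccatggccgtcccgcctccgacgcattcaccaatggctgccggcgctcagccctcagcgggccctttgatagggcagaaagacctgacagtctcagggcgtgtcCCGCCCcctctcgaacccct
Gprin1: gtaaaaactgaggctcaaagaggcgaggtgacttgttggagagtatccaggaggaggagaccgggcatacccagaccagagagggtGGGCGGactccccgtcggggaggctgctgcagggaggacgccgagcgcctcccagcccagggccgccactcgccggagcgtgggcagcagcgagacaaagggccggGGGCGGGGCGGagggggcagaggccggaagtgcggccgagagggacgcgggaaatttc
The stretch of Cdk5r2 held 1 half-site of the cAMP response element and that of Fyn 1 GC box, on the opposite strand. The stretch of Gprin1 held 3 GC boxes, of which the 2 nearer the start site overlap. The Fyn stretch lies inside the annotated span of the gene, between exons, since other Fyn transcripts start further upstream. In the full window of 300 bases around the start site, a GC box was found in all 5 members with an entry, against 35.7% of 32851 promoters. The half-site was found in 1 of the 5, Cdk5r2, against 20.8% of promoters. The site of EGR factors (GCGGGGGCG) was found in 0 of the 5, against 2.91%. These are matches of letters and not shown to be bound.

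The 9 genes were all expressed, at levels that spanned a wide range. Per kilobase of exon, which allows genes of different length to be compared, Cdk5r2 was highest at 141.8 ± 15.3 CPM per kb (SD, n = 12 libraries). Map1b followed at 66.9 ± 5.01 and Cdk5r1 at 66.8 ± 5.56 CPM per kb, and their ranges overlapped. Then came Gprin1 at 39.8 ± 3.84, Cdk5 at 37.3 ± 1.86, Dpysl2 at 30.2 ± 3.12 and Fyn at 24.6 ± 1.86 CPM per kb, each with a range overlapping its neighbour's. Cops5 at 12.5 ± 1.77 and Nf1 at 6.96 ± 0.474 CPM per kb stood lowest, apart from the others and from each other. Cdk5r2 lay above 98.95% of the protein-coding genes that passed the filter on this scale and Nf1 above 62.7%. The lowest count of any member in any library was 1762, for Cops5, and the highest 73741, for Map1b.

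**Figure D1:**
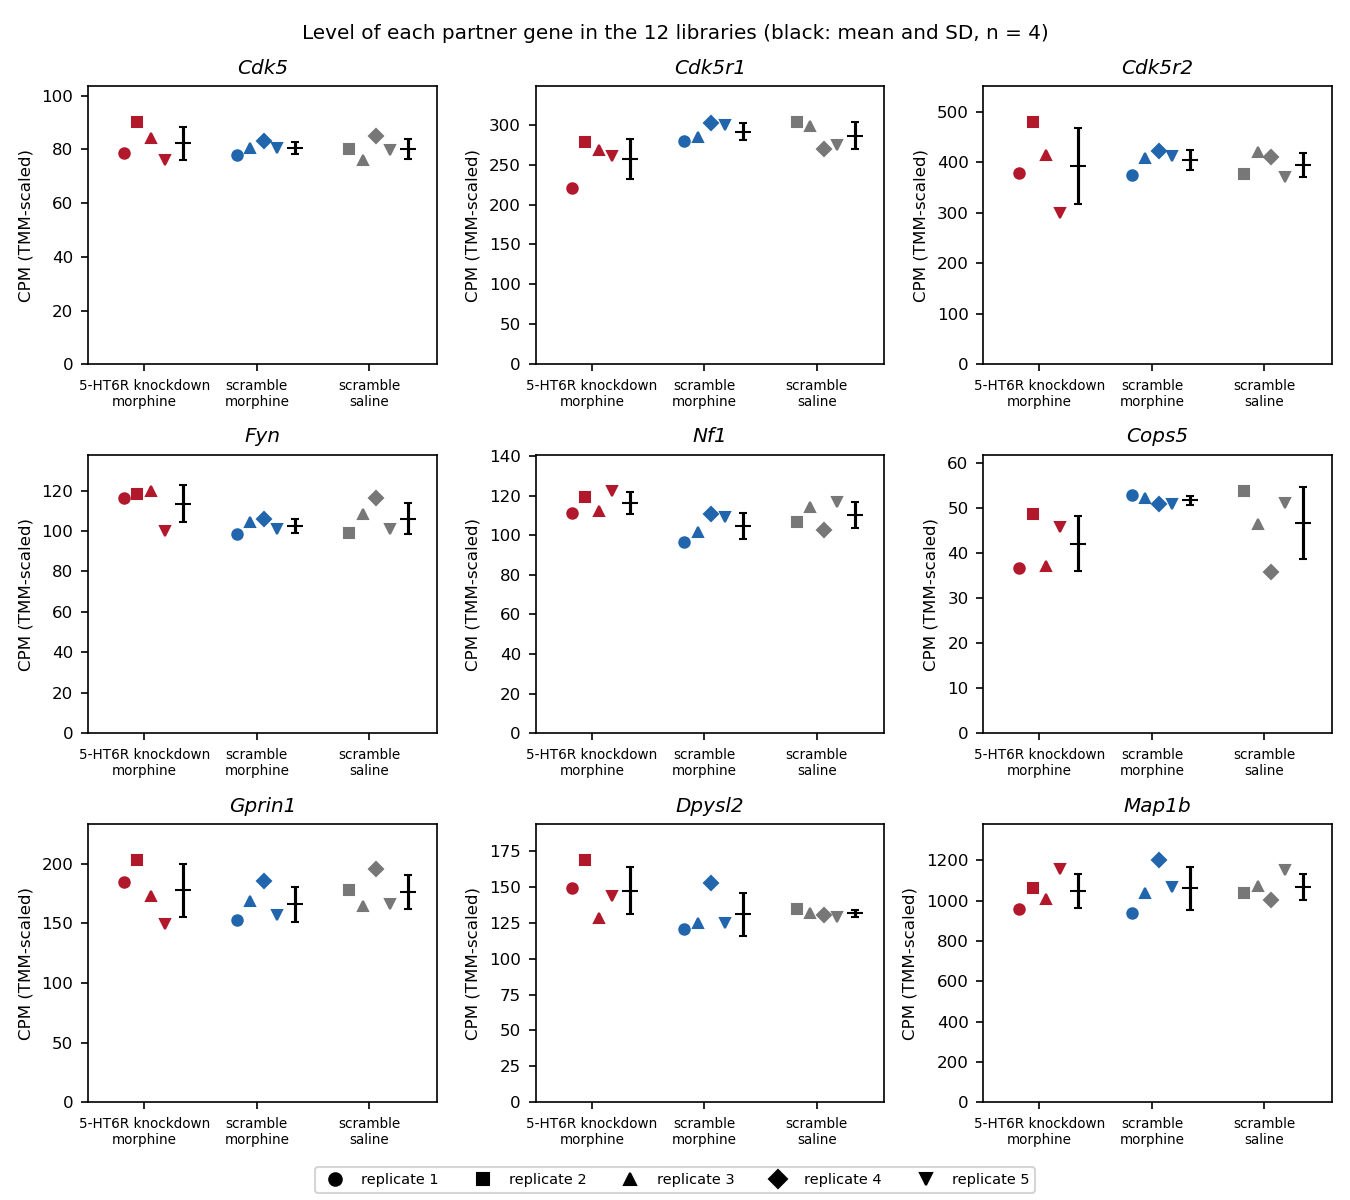
CPM (counts scaled to library sizes, with TMM factors) of each partner gene, 1 point per library, with marker shapes for replicate numbers and black bars for the mean and SD of 4 libraries. For Cdk5r1 and Cops5 all 4 knockdown libraries lie below all 4 scramble morphine libraries, for Nf1 all 4 lie above, and for the other 6 genes these groups overlap.

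The main comparison, knockdown against scramble with morphine, asks which partner genes differ once the receptor is targeted in mice given the drug. Of the 9 genes, 0 passed the edgeR quasi-likelihood test at a Benjamini-Hochberg adjusted p under 0.05 (the smallest was 0.354), as did 0% of the 21958 genes tested. DESeq2 and limma voom also called 0 of the 9, and 164 and 1 of all genes. An unadjusted p under 0.05 was reached by 3 members, Cdk5r1, Nf1 and Cops5, against 12% of all genes, 2643 genes (6.17% lower and 5.87% higher). The same 3 were the members whose groups did not overlap, against 5.85% of all genes. Cdk5r1 and Cops5 stood lower, against 3.26% of all genes that were lower without overlap, and Nf1 stood higher, against 2.59%. The median log2 fold change was 0.03 over the members and 0.00 over all genes, with 4 members below 0, where 49.3% of all genes lay. Log2 fold changes of the members ran from -0.30 to 0.17, so differences between these groups were small in size. In these whole-tissue samples, fewer cells of a type and less RNA per cell cannot be told apart.

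**Figure D2:**
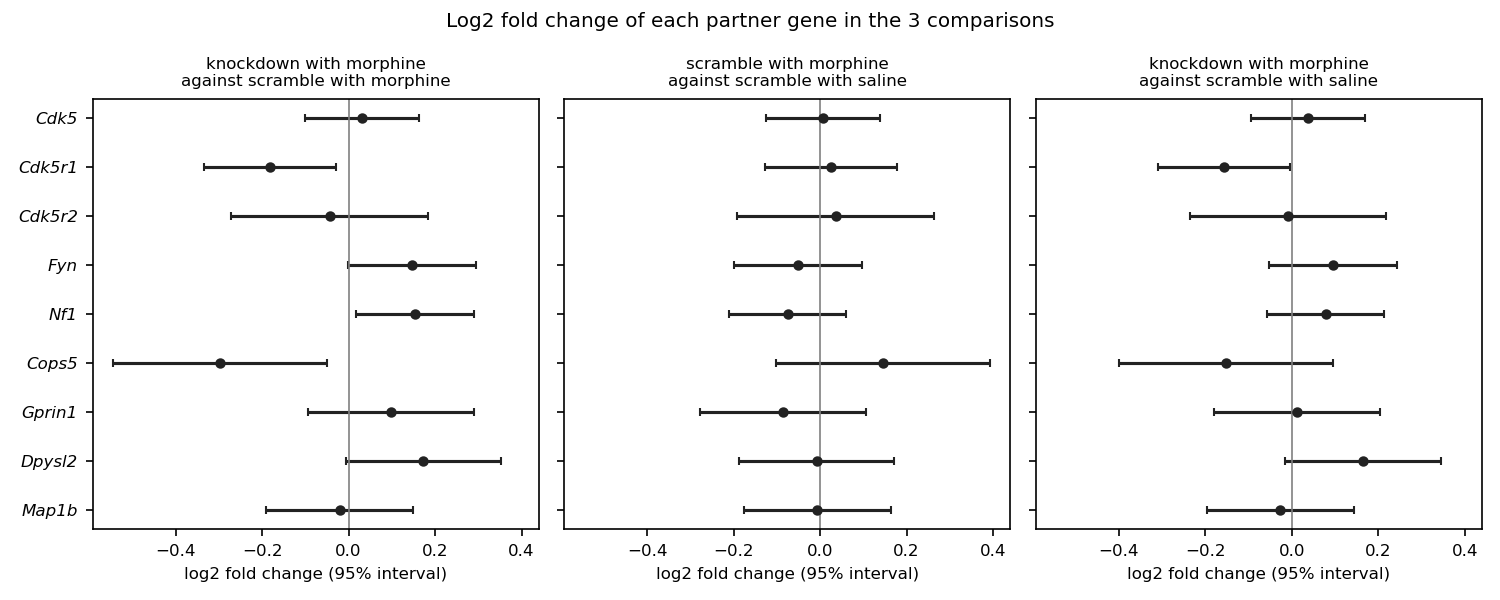
Log2 fold change of each partner gene in the 3 comparisons, with 95% intervals from the edgeR fit that are not adjusted for the number of genes. The intervals of Cdk5r1, Nf1 and Cops5 leave out 0 in the first panel, none does in the second, and that of Cdk5r1 does in the third.

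Cdk5 (ENSMUSG00000028969, mm10 chromosome 5, 24418241 to 24423530, minus strand) encodes the kinase at the centre of the group, which needs an activator subunit and acts in neuronal migration, neurite growth and synaptic plasticity. It had 78.5, 90.0, 84.1 and 76.1 CPM with knockdown and morphine, against 77.8, 80.4, 83.1 and 80.4 CPM with scramble and morphine and 79.9, 75.9, 84.8 and 79.7 CPM with scramble and saline. The groups overlapped, with 2 knockdown libraries above and 1 below all scramble morphine libraries. Cdk5 was the member that varied least, with a coefficient of variation of 4.99% over the 12 libraries. Its log2 fold change stood at 0.03 for knockdown morphine over scramble morphine (SE 0.06, edgeR adjusted p = 0.888), with a 95% interval of the fold from 0.932 to 1.12. It was 0.01 for scramble morphine over scramble saline and 0.04 for knockdown morphine over scramble saline.

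Cdk5r1 (ENSMUSG00000048895, chromosome 11, 80477023 to 80481184, plus strand) encodes the activator p35, which brings Cdk5 to membranes and can be cleaved by calpain. Its levels were 220.6, 278.4, 267.7 and 260.6 CPM with knockdown and morphine, against 279.7, 284.0, 302.1 and 299.1 CPM with scramble and morphine and 303.0, 298.2, 269.5 and 274.3 CPM with scramble and saline. Every knockdown library lay below every scramble morphine library, by a margin of little more than 1 CPM between the nearest pair, and knockdown replicate 1 was lowest of all. Group means were 256.8 ± 25.2 CPM with knockdown and morphine, 291.2 ± 11.03 CPM with scramble and morphine and 286.2 ± 16.8 CPM with scramble and saline (SD, n = 4 each). Its value against scramble morphine was -0.18 on the log2 scale (SE 0.07, unadjusted p = 0.0231, edgeR adjusted p = 0.358), a fold of 0.882 with a 95% interval from 0.793 to 0.980, lower in 4 of 4 libraries. Against scramble with saline it was -0.16 (SE 0.07, unadjusted p = 0.0453, edgeR adjusted p = 0.527), with 3 of 4 knockdown libraries below all saline libraries. With the ribosomal RNA share as a covariate, the value against scramble with morphine was -0.02, and without the 3 libraries that stood apart it was -0.11 (edgeR adjusted p = 0.997 and 0.780). That share was higher in every knockdown library than in every scramble morphine library. For any gene, the covariate can therefore hardly be separated from the group in this comparison. In the other direction, the value reached -0.25 over the alternatives. Its lowest adjusted p came with replicate numbers as a block in the fit (edgeR adjusted p = 0.121).

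Cdk5r2 (ENSMUSG00000090071, chromosome 1, 74854934 to 74857732, plus strand) encodes the second activator, p39. It had 378.5, 478.6, 413.0 and 298.5 CPM with knockdown and morphine, against 374.4, 408.7, 421.0 and 412.8 CPM with scramble and morphine and 376.9, 419.4, 409.9 and 370.8 CPM with scramble and saline. The knockdown group held both the highest and the lowest of the 12 libraries, replicates 2 and 5, and its coefficient of variation was 19.1%, against 5.08% with scramble and morphine and 6.09% with scramble and saline. For knockdown morphine over scramble morphine the log2 fold change stood at -0.04 (SE 0.11, edgeR adjusted p = 0.913). It turned to 0.06 without knockdown replicate 5 and was -0.15 without knockdown replicate 2.

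The balance of the activators with their kinase was taken within each library, as the ratio of counts per kilobase of exon, which does not depend on how libraries are scaled. The Cdk5r1 to Cdk5 ratio was 1.46, 1.61, 1.66 and 1.78 with knockdown and morphine, against 1.87, 1.84, 1.89 and 1.94 with scramble and morphine and 1.97, 2.05, 1.66 and 1.79 with scramble and saline. All knockdown libraries lay below all scramble morphine libraries, while knockdown and saline overlapped. Mean ratios were 1.63 ± 0.132 with knockdown and morphine, 1.89 ± 0.0408 with scramble and morphine and 1.87 ± 0.176 with scramble and saline (SD, n = 4 each). The difference of log2 ratios for knockdown morphine over scramble morphine was -0.21, with p = 0.0286 in an exact two-sided permutation test, the smallest p that 70 assignments allow, and 0.171 after adjustment over the 6 tests of ratios. Against scramble with saline the difference was -0.20 (exact permutation p = 0.0857, adjusted 0.257), and for scramble morphine over scramble saline 0.02 (exact permutation p = 0.8, adjusted 0.8). The Cdk5r2 to Cdk5 ratio averaged 3.67 ± 0.455 with knockdown and morphine, 3.89 ± 0.112 with scramble and morphine and 3.82 ± 0.311 with scramble and saline (SD, n = 4 each). Its differences of log2 ratios were -0.09 for knockdown morphine over scramble morphine, 0.03 for scramble morphine over scramble saline, and -0.06 for knockdown morphine over scramble saline. Their exact permutation p-values were 0.543, 0.686 and 0.657. The ratio of Cdk5r2 was lowest in knockdown replicate 5 (3.04), where that of Cdk5r1 was highest of the knockdown group (1.78).

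**Figure D3:**
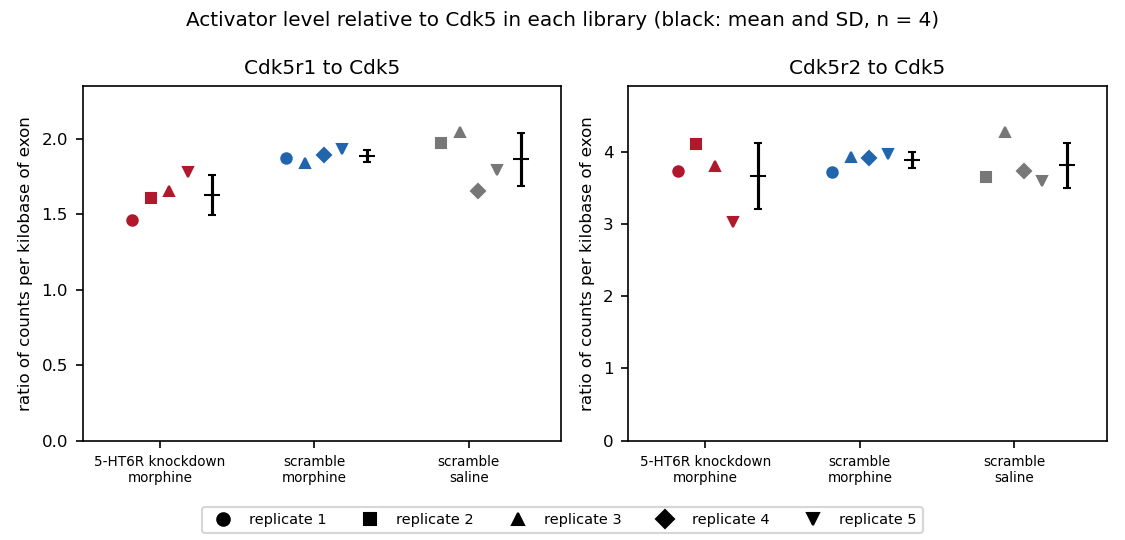
Ratio of Cdk5r1 (left) and Cdk5r2 (right) to Cdk5 in counts per kilobase of exon, 1 point per library, with black bars for the mean and SD of 4 libraries. The knockdown libraries lie between 1.46 and 1.78 in the left panel, all below the scramble morphine libraries at 1.84 to 1.94, and overlap with both other groups in the right panel.

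Fyn (ENSMUSG00000019843, chromosome 10, 39368855 to 39565381, plus strand) encodes a Src family kinase that binds the tail of 5-HT6R and phosphorylates NMDA receptors, and that also acts in myelination. Its levels were 116.5, 118.1, 119.6 and 99.9 CPM with knockdown and morphine, against 98.3, 104.6, 106.2 and 101.0 CPM with scramble and morphine and 99.1, 108.2, 116.2 and 101.1 CPM with scramble and saline. Knockdown replicates 1, 2 and 3 were the 3 highest of the 12 libraries, and knockdown replicate 5 lay within the range of scramble and morphine. For knockdown morphine over scramble morphine the log2 fold change was 0.15 (SE 0.07, unadjusted p = 0.0509, edgeR adjusted p = 0.417), a fold of 1.11 with a 95% interval from 0.9996 to 1.23. Without knockdown replicate 5 it was 0.20 (edgeR adjusted p = 0.0932), and without the 3 libraries that stood apart 0.09. Summed markers of oligodendrocytes and myelin, 13 genes with none at 0, ran from 1223.2 to 2182.2 CPM with knockdown and morphine, against 2005 to 2801 CPM with scramble and morphine and 1889 to 2477 CPM with scramble and saline. The part of these markers in the Fyn values was not tested.

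Nf1 (ENSMUSG00000020716, chromosome 11, 79339693 to 79581612, plus strand) encodes neurofibromin, which switches off Ras by raising its GTPase activity. It had 111.5, 119.5, 112.1 and 122.2 CPM with knockdown and morphine, against 96.6, 101.6, 110.7 and 109.3 CPM with scramble and morphine and 106.7, 114.1, 102.9 and 116.9 CPM with scramble and saline. The knockdown libraries lay above all scramble morphine libraries, with less than 1 CPM between the nearest pair, and overlapped with saline. Means were 116.3 ± 5.36 CPM with knockdown and morphine, 104.6 ± 6.63 CPM with scramble and morphine and 110.1 ± 6.47 CPM with scramble and saline (SD, n = 4 each). The log2 fold change for knockdown morphine over scramble morphine was 0.15 (SE 0.06, unadjusted p = 0.0286, edgeR adjusted p = 0.368), a fold of 1.11 with a 95% interval from 1.01 to 1.22, higher in 4 of 4 libraries. It was 0.21 without the 3 libraries that stood apart and 0.15 with the ribosomal RNA share as a covariate (edgeR adjusted p = 0.671 and 0.941), and 0.0883 with library totals as the only scaling. The genes Omg, Evi2, Evi2a and Evi2b lie within introns of Nf1 on the opposite strand and share no exon bases with it. Whether counting used the strand is not given in the sources used here.

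Cops5 (ENSMUSG00000025917, chromosome 1, 10024601 to 10038168, minus strand) encodes Jab1, the catalytic subunit of the COP9 signalosome, which removes the Nedd8 tag from cullin ubiquitin ligases. Its levels were 36.8, 48.8, 37.2 and 45.9 CPM with knockdown and morphine, against 52.9, 52.2, 51.1 and 50.9 CPM with scramble and morphine and 53.8, 46.4, 35.7 and 51.3 CPM with scramble and saline. All knockdown libraries lay below all scramble morphine libraries, which were nearly alike, while the saline group held the lowest and the highest library. Means were 42.1 ± 6.08 CPM with knockdown and morphine, 51.8 ± 0.933 CPM with scramble and morphine and 46.8 ± 7.98 CPM with scramble and saline (SD, n = 4 each). The log2 fold change for knockdown morphine over scramble morphine, -0.30, was the largest in size of the 9 members (SE 0.12, unadjusted p = 0.022, edgeR adjusted p = 0.354), a fold of 0.814 with a 95% interval from 0.685 to 0.966. The lowest 3 of the 12 Cops5 values were those of the libraries that stood apart, at 35.7 to 37.2 CPM, and the other 9 libraries had 45.9 to 53.8 CPM. Without those 3 libraries, which leaves 2 knockdown libraries, its log2 fold change was -0.13 (edgeR adjusted p = 0.772). In the other direction, the log2 fold change of Cops5 reached -0.43 over the alternatives. Its lowest adjusted p came with replicate numbers as a block in the fit (edgeR adjusted p = 0.0995). Cops5 shares 182 exon bases, 4.83% of its exons, with Cspp1 on the opposite strand, so some of its counts may belong to that gene.

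Gprin1 (ENSMUSG00000069227, chromosome 13, 54736671 to 54749874, minus strand) encodes a membrane protein that binds inhibitory G proteins and promotes neurite outgrowth. It had 185.0, 202.8, 172.7 and 149.7 CPM with knockdown and morphine, against 152.8, 168.4, 185.2 and 157.0 CPM with scramble and morphine and 177.7, 164.7, 195.5 and 165.9 CPM with scramble and saline. The groups overlapped, with knockdown replicate 2 highest and knockdown replicate 5 lowest of the 12. The log2 fold change stood at 0.10 for knockdown morphine over scramble morphine (SE 0.09, edgeR adjusted p = 0.706), and -0.01 with the ribosomal RNA share as a covariate.

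Dpysl2 (ENSMUSG00000022048, chromosome 14, 66802864 to 66868688, minus strand) encodes CRMP2, which binds tubulin dimers, promotes axon growth and is phosphorylated by Cdk5. Its levels were 149.2, 168.4, 128.6 and 143.2 CPM with knockdown and morphine, against 120.8, 125.0, 152.6 and 124.5 CPM with scramble and morphine and 134.6, 131.7, 130.6 and 128.8 CPM with scramble and saline. All 4 knockdown libraries lay above 3 of the scramble morphine libraries, and replicate 4 of that group lay above 3 of the knockdown libraries. The log2 fold change stood at 0.17 for knockdown morphine over scramble morphine (SE 0.08, unadjusted p = 0.058, edgeR adjusted p = 0.434) and 0.16 for knockdown morphine over scramble saline (SE 0.08, edgeR adjusted p = 0.576). For knockdown morphine over scramble morphine it was 0.04 with the ribosomal RNA share as a covariate and 0.25 without scramble morphine replicate 4.

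Map1b (ENSMUSG00000052727, chromosome 13, 99421446 to 99516540, minus strand) encodes a microtubule-associated protein of growing axons and had the highest CPM of the members. It had 958.9, 1065, 1011 and 1158 CPM with knockdown and morphine, against 941.6, 1040, 1201 and 1070 CPM with scramble and morphine and 1040, 1075, 1002 and 1153 CPM with scramble and saline. The groups overlapped fully, and the highest and the lowest library were both of scramble with morphine. The log2 fold change stood at -0.02 for knockdown morphine over scramble morphine (SE 0.08, edgeR adjusted p = 0.951), with a 95% interval of the fold from 0.877 to 1.11.

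Other measures of the libraries also ran with this comparison. The share of the ribosomal RNA locus was higher in every knockdown library than in every scramble morphine library, as given above. Summed interneuron markers, 12 genes with none at 0, ran from 905 to 1073 CPM with knockdown and morphine, against 1136 to 1181 CPM with scramble and morphine and 1020 to 1130 CPM with scramble and saline. Summed excitatory neuron markers ran from 5432 to 6960 CPM with knockdown and morphine, against 6439 to 6808 CPM with scramble and morphine and 5993 to 6787 CPM with scramble and saline, and overlapped. The part of these cell markers in the values of Cdk5r1, Nf1 and Cops5 was not tested.

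The second comparison, scramble with morphine against scramble with saline, asks what the drug left behind under the control virus. It shares the scramble morphine libraries with the main comparison. Of the 9 members, 0 passed the edgeR test, as did 0% of all genes, and each had an adjusted p = 0.999. DESeq2 and limma voom also called 0 of the 9. An unadjusted p under 0.05 was reached by 0 members, against 3.48% of all genes (1.82% lower and 1.67% higher), and 0 members had groups without overlap, against 3.32% (1.77% lower and 1.55% higher). Log2 fold changes ran from -0.09 for Gprin1 (SE 0.09) to 0.15 for Cops5 (SE 0.12), with 5 members below 0, where 50.5% of all genes lay. Without scramble saline replicate 4, 1 of the libraries that stood apart, they were 0.03 for Cops5 and -0.03 for Gprin1, and without scramble morphine replicate 4 Gprin1 was at -0.14. Nf1 was at -0.07 (SE 0.06), Fyn at -0.05 (SE 0.07), Cdk5r2 at 0.04 (SE 0.11) and Cdk5r1 at 0.02 (SE 0.07). The 95% intervals of the fold reached down to 0.824, for Gprin1, and up to 1.31, for Cops5.

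The third comparison, knockdown with morphine against scramble with saline, differs in virus and drug together and shares libraries with both others. Again 0 of the 9 members passed the edgeR test, against 3 of all genes (0.0137%), and the smallest adjusted p of a member was 0.527, for Cdk5r1. DESeq2 and limma voom also called 0 members. Cdk5r1 was also the 1 member with an unadjusted p under 0.05, against 9.35% of all genes. All 9 overlapped between the groups, where 4.34% of all genes did not (2.16% lower and 2.18% higher). Below 0 lay 4 members and 50.4% of all genes. Dpysl2 stood above all saline libraries in 3 of 4 knockdown libraries and below all of them in the other. Cops5 was at -0.15 (SE 0.12), Fyn at 0.10 (SE 0.07), Nf1 at 0.08 (SE 0.06), Map1b at -0.03 (SE 0.08), Gprin1 at 0.01 (SE 0.09) and Cdk5r2 at -0.01 (SE 0.11).

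**Figure D4:**
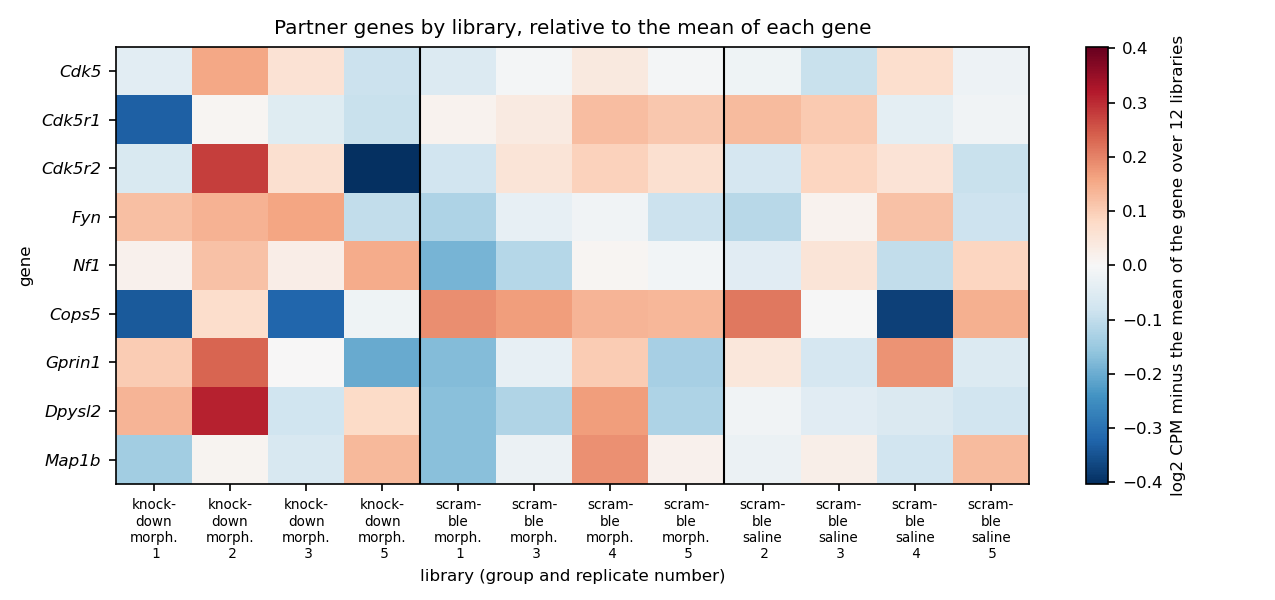
Log2 CPM of each partner gene in each library minus the mean of that gene over the 12 libraries, with knockdown morphine, scramble morphine and scramble saline libraries from left to right. Cops5 is lowest in knockdown replicates 1 and 3 and scramble saline replicate 4, and Cdk5r2, Gprin1 and Dpysl2 are all highest in knockdown replicate 2.

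The members varied among themselves across libraries, within groups as well as between them. Because 3 libraries stood apart, correlations of log2 CPM are given first over the other 9, a choice made after seeing the data, with 100000 permutations and adjustment over 36 pairs. Cdk5 and Gprin1 had Pearson r = 0.87 and Spearman rho = 0.73 (permutation p = 0.0028 and 0.0315, adjusted 0.101 and 0.301), and r = 0.85 without the 2 libraries farthest from the median of Cdk5. Cdk5r2 and Fyn had r = 0.75 and rho = 0.77 (permutation p = 0.0314 and 0.0212, adjusted 0.141 and 0.301), and r = 0.82 without the 2 farthest. Fyn and Gprin1 had r = 0.77 and rho = 0.60 (permutation p = 0.0145 and 0.0977, adjusted 0.134 and 0.391), and r = 0.62 without the 2 farthest. Cdk5r2 and Gprin1 had r = 0.73 and rho = 0.68 (permutation p = 0.0261 and 0.05, adjusted 0.134 and 0.301), but r = 0.24 without the 2 farthest, so that relation rests on those libraries. Some pairs not set out in full had r of like size over the 9. Pearson r was 0.75 for Gprin1 and Dpysl2, 0.73 for Nf1 and Map1b and 0.73 for Fyn and Dpysl2. Their permutation p was 0.0206, 0.0239 and 0.0256 (adjusted 0.134 each), and r without the 2 farthest was -0.02, 0.38 and 0.44. Cdk5 had r = 0.72 with Fyn and 0.71 with Cdk5r2 (permutation p = 0.0443 and 0.0516, adjusted 0.16 and 0.169). Without the 2 farthest these were 0.75 and 0.88. Nf1 and Cops5 had r = -0.75 and rho = -0.80 (permutation p = 0.0215 and 0.0136, adjusted 0.134 and 0.301), and r = -0.61 without the 2 farthest. Over all 12 libraries that relation was not seen, with r = -0.10 and rho = -0.38 (permutation p = 0.75 and 0.219, adjusted 0.862 and 0.492), and r = 0.09 without the 2 farthest. Over the 12, r was 0.78 for Cdk5 and Gprin1, 0.55 for Cdk5r2 and Fyn, 0.73 for Fyn and Gprin1 and 0.65 for Cdk5r2 and Gprin1 (permutation p = 0.00231, 0.0523, 0.00905 and 0.0183, adjusted 0.0734, 0.171, 0.0891 and 0.11). Spearman's rho was 0.73, 0.66, 0.66 and 0.57 for these pairs (permutation p = 0.00826, 0.0227, 0.0246 and 0.0588, adjusted 0.162, 0.177, 0.177 and 0.212). Without the 2 farthest r was 0.54, 0.39, 0.75 and 0.17, so the relation of Cdk5r2 to Gprin1 over the 12 rests on those libraries. The relations of Cdk5 to Gprin1 and of Cdk5r2 to Fyn were weaker without them. In every pair the 2 farthest are taken from the median of the gene named first, so they depend on that order. Fyn and Cops5 had r = -0.78 and rho = -0.70 over the 12 (permutation p = 0.00408 and 0.0135, adjusted 0.0734 and 0.162), and r = -0.88 without the 2 farthest. Over the 9, Fyn and Cops5 had r = -0.38 and rho = -0.50 (permutation p = 0.319 and 0.177, adjusted 0.604 and 0.456). Among other pairs over the 12, r was 0.71 for Cdk5 and Cdk5r2 and 0.68 for Cdk5r1 and Cops5. Their permutation p was 0.0124 and 0.01 (adjusted 0.0891 each), and r without the 2 farthest was 0.55 and 0.51. No pair passed after adjustment, by either measure, over 9 or over 12 libraries. The points share library depth and composition.

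For each member, the protein-coding gene whose level ran most alike was sought among 11724 genes with a mean of at least 5 CPM, by Pearson's r of log2 CPM over the 12 libraries. Fyn ran most closely with Diras1 (r = 0.977) and had 154 genes above r = 0.9. Cops5 ran with Tmem185a (r = 0.970) and had 111 such genes. The other matches were Adgrb1 for Cdk5r2 (0.974), Rangap1 for Gprin1 (0.964), Tomm20 for Cdk5r1 (0.946), Rusc1 for Cdk5 (0.913), Srsf12 for Dpysl2 (0.913), Rnf24 for Map1b (0.894) and Usp37 for Nf1 (0.888). Nf1 and Map1b had 0 genes above 0.9. After each group was centred on its own mean, these 9 correlations lay between 0.805, for Nf1, and 0.982, for Gprin1. Each is the highest of many and describes these 12 libraries.

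The genes around the members in their pathways were read from 8 lists, which hold 168 genes and none of the 9. In the main comparison 0 of the 168 passed the edgeR test, as did 0% of all genes, while DESeq2 called Ppp1r1b and Dab1 and limma voom called 0. An unadjusted p under 0.05 was reached by 33 of them, 25 lower and 8 higher, against 12% of all genes (6.17% lower and 5.87% higher). The median log2 fold change over the 168 genes was -0.03 and 100 of them lay below 0, against 0.00 and 49.3% over all genes.

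Among the regulators and substrates of Cdk5, 34 genes, 4 had an unadjusted p under 0.05 and stood lower, and 0 stood higher, a share near the 12% of all genes. Ppp1r1b, which encodes the Cdk5 substrate DARPP-32, had the smallest p (log2 fold change -0.66, SE 0.10, edgeR adjusted p = 0.115). It averaged 50.0 ± 4.57 CPM with knockdown and morphine and 79.3 ± 7.35 CPM with scramble and morphine (SD, n = 4 each), without overlap. It is also a marker of striatal neurons, whose 10 summed markers, itself among them, ran from 183 to 230 CPM with knockdown and morphine, against 220 to 262 CPM with scramble and morphine. That sum, with Ppp1r1b in it, averaged 199.0 ± 21.1 CPM with knockdown and morphine and 236.6 ± 18.6 CPM with scramble and morphine. Most of the difference between these sums is that of Ppp1r1b itself, at 50.0 and 79.3 CPM. The part of the other striatal markers was not tested. Ppp1r1b passed with DESeq2 (adjusted p = 7.89e-06), without the filter (edgeR adjusted p = 0.0118) and in edgeR without knockdown replicate 5, scramble saline replicate 4 or scramble saline replicate 5 (adjusted p = 0.0162, 0.0291 and 0.0472). Capns1, the small subunit of the calpains that cleave p35, was at -0.22 (SE 0.07, edgeR adjusted p = 0.286).

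The list of Ras, its GTPase activating proteins and ERK kinases, where Nf1 acts, had 19 of 26 genes below 0, against 49.3% of all genes, and a median log2 fold change of -0.07. Of these genes 8 had an unadjusted p under 0.05 and stood lower, and 0 stood higher, against 6.17% of all genes lower and 5.87% higher. Lztr1, an adaptor for Ras degradation, was at -0.22 (SE 0.07, edgeR adjusted p = 0.286). Around Cops5, 8 of the 9 other subunits of the COP9 signalosome lay below 0, against the same 49.3% of all genes, with a median of -0.11. Under each other scaling both lists kept a median below 0, while with the ribosomal RNA share as a covariate the COP9 list had 6 of 9 subunits below 0 and a median of -0.05. Cops6 was at -0.19 and Cops7a at -0.16 (SE 0.08 and 0.07, edgeR adjusted p = 0.378 and 0.379).

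The Src family list around Fyn had 12 of 20 genes above 0 and a median log2 fold change of 0.06, but with library totals as the only scaling 9 of 20 were above 0 and the median was -0.01. It had 3 genes higher and 1 lower at an unadjusted p under 0.05, against 5.87% of all genes higher and 6.17% lower. Dab1, the reelin adaptor that Fyn phosphorylates, was at 0.46 (SE 0.12, edgeR adjusted p = 0.269), and Prnp, the prion protein, at -0.18 (SE 0.06, edgeR adjusted p = 0.324). Dab1 averaged 97.4 ± 16.9 CPM with knockdown and morphine and 70.9 ± 5.73 CPM with scramble and morphine (SD, n = 4 each), with overlap. It passed with DESeq2 (adjusted p = 0.0444) and in edgeR without knockdown replicate 5 (adjusted p = 0.0216).

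The G protein pathway of the receptor, 24 genes with Htr6 among them, had 3 genes lower and 0 higher at an unadjusted p under 0.05. The shares over all genes, 6.17% lower and 5.87% higher, are the background here and for the lists that follow. Prkacb, a catalytic subunit of protein kinase A, was at -0.38 (SE 0.15) and Prkar2b, a regulatory subunit, at -0.16 (SE 0.07), with edgeR adjusted p of 0.355 and 0.362. The list of Gprin genes and inhibitory G proteins had 2 of 11 higher and 3 lower. There the small GTPase Rac1 was at -0.27 and the inhibitory G protein subunit Gnai3 at -0.30 (SE 0.09 and 0.10, edgeR adjusted p = 0.315 and 0.32). Relatives and partners of CRMP2 had 1 of 21 higher and 0 lower, with the semaphorin receptor Plxna1 at 0.21 (SE 0.09) and Dpysl4, another CRMP, at -0.08 (SE 0.06). Microtubule-associated proteins and tubulins had 2 of 26 higher and 4 lower, with the stathmin Stmn3 at -0.27 (SE 0.08) and the tubulin Tubb2b at -0.48 (SE 0.15). Their edgeR adjusted p lay above the threshold, at 0.38, 0.576, 0.279 and 0.299 in the order named.

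**Figure D5:**
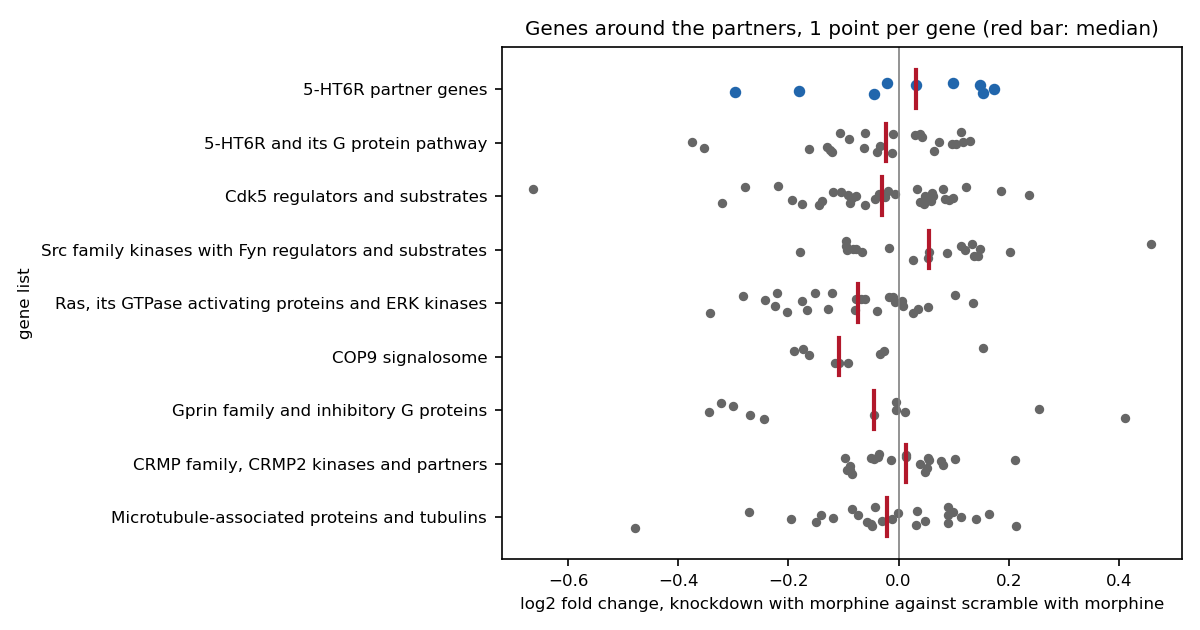
Log2 fold change for knockdown morphine over scramble morphine of each gene in the 8 pathway lists and of the 9 partner genes, 1 point per gene, with red bars for the median. Medians run from -0.11 for the COP9 signalosome to 0.06 for the Src family list, whose median is -0.01 with library totals as the only scaling.

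In the second comparison 3 of the 168 genes had an unadjusted p under 0.05, against 3.48% of all genes, and 0 passed. All 3 were in the Cdk5 list, where the calpain Capn2 averaged 87.8 ± 1.73 CPM with scramble and morphine and 75.9 ± 7.45 CPM with scramble and saline (SD, n = 4 each), and the calcium channel Cacna1b 149.9 ± 13.0 CPM with scramble and morphine and 169.3 ± 4.10 CPM with scramble and saline. Their log2 fold changes were 0.21 and -0.18 (SE 0.07 and 0.06, edgeR adjusted p = 0.999 each). Log2 fold changes of the other genes with the smallest p of their lists lay between -0.24 and 0.12. Htr6 was at -0.24, Prkar2a at -0.13, the NMDA receptor subunit Grin2b at -0.13, the potassium channel Kcnma1 at -0.08, Lztr1 at 0.09, Spred3 at 0.07, Cops8 at 0.10 and Cops2 at 0.11. Of the remaining lists, Rgs7 was at -0.16, Rac1 at 0.12, the semaphorin receptor Plxna4 at -0.09, Dpysl5 at -0.16, doublecortin (Dcx) at -0.14 and Stmn4 at -0.11.

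In the third comparison 20 of the 168 had an unadjusted p under 0.05, 14 lower and 6 higher, against 9.35% of all genes (4.37% lower and 4.97% higher), and 0 passed. Of the genes named for small p there, Arhgap35, a Fyn substrate, averaged 252.8 ± 12.4 CPM with knockdown and morphine and 219.2 ± 10.4 CPM with scramble and saline, and Nras, a Ras protein, 44.0 ± 6.93 CPM with knockdown and morphine and 50.8 ± 1.63 CPM with scramble and saline (SD, n = 4 each). Their log2 fold changes were 0.21 and -0.21 (SE 0.06 and 0.09, edgeR adjusted p = 0.369 and 0.48). Ppp1r1b was at -0.61 (SE 0.10, edgeR adjusted p = 0.107), and both Ppp1r1b and Nras passed without knockdown replicate 5 (edgeR adjusted p = 0.0415 and 0.0421). Ppp1r1b also passed without the filter (edgeR adjusted p = 0.0147) and with DESeq2 (adjusted p = 6.08e-05). Other genes with the smallest p of their lists were below 0 on the log2 scale: Prkar2b at -0.18, Rheb at -0.14, Cdk5rap3 at -0.25, Cops6 at -0.16, Cops9 at -0.18, Gnai3 at -0.23, Dpysl4 at -0.13, Stmn3 at -0.26 and Tubb2a at -0.23. Above 0 were Dab1 at 0.30, Gnai2 at 0.31 and Plxna1 at 0.16.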

How the data were processed

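The authors deposited whole-number counts per gene for 12 libraries, 4 in each of 3 groups. Poly(A) RNA was selected on oligo(dT) beads and the second strand was marked with dUTP, per the labels' protocols. HISAT2 2.0.4, StringTie 1.3.4d, cutadapt 1.9, edgeR, DESeq2 and the build mm10 are named in the submitters' processing notes, with no roles. Which annotation release was used, and whether strand entered the counting, is not given in the sources used here, and overlapping genes are uncertain for that reason. Ribosomal RNA is not the target of poly(A) selection, and what set its share here was not tested.

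Gene IDs were matched to symbols, coordinates and exon lengths of the GENCODE mouse release on the mm10 assembly (55141 of 55401 IDs). The treatment label set the groups, and titles gave the replicate numbers. The test was edgeR 4.0.16 (R 4.3.3): filterByExpr with a minimum count of 10, TMM scaling, and a robust quasi-likelihood fit of all libraries with a mean for each group (biological coefficient of variation 23.2%, 9 residual degrees of freedom), two-sided and adjusted over all genes by Benjamini-Hochberg at 0.05. The fit was run on simulated counts with the same spread for all genes and planted changes larger than those of the members. That run therefore does not bear on differences as small as theirs. Correlations used 100000 permutations. All 9 members were named, with Htr6, the 1 gene most alike to each member and, of each pathway list, the genes called or otherwise the 2 with the smallest p and a mean of at least 1 CPM, some of which are not reported here. Members, lists and tests were chosen with earlier results of these data known. Alternatives were other scalings and filters, DESeq2 1.42.0, limma 3.58.1 voom, a fit of the compared groups only, a replicate block, the ribosomal RNA share as a covariate and each library left out. Leaving out the 3 libraries that stand apart, and applying the alternatives to list genes, were chosen after seeing the data. No pair of libraries within a group was alike enough to be 1 library deposited more than once (chi-square per gene of at least 12.7).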

Additional observations from a re-analysis of the deposited data

Results flagged for a closer look

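A gap test in each group of 4 libraries marked 2 of 33 sets, where chance marks about 1 in 20. The sets were the values of each member and the ratios of each activator to Cdk5, which reuse the same counts. Dpysl2 had 152.6 CPM in scramble morphine replicate 4, while the other libraries of that group had 120.8 to 125.0 CPM. Fyn had 99.9 CPM in knockdown replicate 5, while the other knockdown libraries had 116.5 to 119.6 CPM.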

How the results depend on the processing

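Members called stayed at 0 in each comparison under all 23 alternatives, and the lowest adjusted p was 0.0932, for Fyn without knockdown replicate 5. The comparisons are called the first (knockdown morphine over scramble morphine), the second (scramble morphine over scramble saline) and the third (knockdown morphine over scramble saline). Directions of the members held except in 8 of 207 values in the first and 19 in each of the others. The cause of these changes was not tested.

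With library totals as the only scaling, which shifts the median of all genes by at most 0.0665, log2 fold changes were -0.0372 for Cdk5 in the first comparison, 0.0107 for Dpysl2 and 0.0124 for Map1b in the second, and -0.0115 for Cdk5 and -0.0388 for Gprin1 in the third. Of genes at an unadjusted p under 0.05, the share that was higher was then 19.2% in the first comparison, 60.4% in the second and 27.3% in the third, against 48.7, 47.8 and 53.2% with TMM. Upper-quartile scaling gave 0.00308 for Cdk5r2 in the third, and limma voom 0.0155. Keeping protein-coding genes of at least 1 CPM gave -0.00261 for Cdk5 in the second. The ribosomal RNA share did not overlap between the groups of the first comparison, nor between those of the second. As a covariate it can hardly be separated from the group there. With that share as a covariate, the first comparison gave -0.00894 for Gprin1 and 0.0299 for Map1b. The second gave -0.00996 for Cdk5, -0.0591 for Cdk5r1, 0.0569 for Dpysl2 and 0.0631 for Dpysl5, and the third -0.0440 for Gprin1. Without the 3 libraries that stand apart, Map1b was at 0.0629 and Htr6 at 0.0427 in the first, Cdk5r1 at -0.00306 in the second and Map1b at 0.0272 in the third.

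The replicate numbers were not taken to pair the libraries in the report's fit, and the labels do not say what they mark. Of 9 same-numbered pairs, 6 had deviations from group means correlated at over 0.1 (up to 0.37), while the 3 pairs numbered 3 lay below 0 (down to -0.06). Pairs of different number ran from -0.45 to 0.37, and 6 of 12 libraries correlated best with their own number. A batch shared by some numbers was not tested. With the replicate block, Dpysl2 was at 0.02997 and Map1b at 0.0308 in the second comparison, and Cdk5r2 at 0.0151 and Map1b at 0.0266 in the third. In the first comparison the block gave Cops5 and Cdk5r1 their lowest adjusted p over the alternatives (edgeR adjusted p = 0.0995 and 0.121). The replicate block called 0 members, and 2, 1 and 0 of all genes in the 3 comparisons.

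All genes called in the first comparison were 0 in the report's fit, 2 without the filter, 164 with DESeq2, 1 with limma voom, 4 without the 3 libraries and 0 to 375 with 1 library left out, the highest without knockdown replicate 5. In the second they were 0, with 4 by DESeq2 and 1 on the compared groups alone. In the third they were 3, with 5 without the filter or on the compared groups alone, 147 by DESeq2, 0 with library totals, limma voom, the covariate or without the 3 libraries, and 0 to 55 with 1 library left out, the highest without knockdown replicate 5. Pathway list genes called were 0 in the report's fit, 1 without the filter and 2 with DESeq2 in the first comparison, and 1 in the third with either. With 1 library left out they were 0 to 7 in the first and 0 to 2 in the third. Without knockdown replicate 5 the 7 were Cdk5rap3, Ppp1r1b, Ptk2, Dab1, Nras, Gnai2 and Rgs7. Pairs of members correlated were 0, with 1 under library totals, 1 with groups centred, 1 without the library farthest on the first principal component and 0 to 2 with 1 library left out.

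With 1 library left out, log2 fold changes in the first comparison ran from -0.0166 to 0.0604 for Cdk5, -0.155 to 0.0613 for Cdk5r2 and -0.0769 to 0.0426 for Map1b. In the second they ran from -0.0160 to 0.0318 for Cdk5, -0.00598 to 0.0498 for Cdk5r1, -0.0900 to 0.0261 for Dpysl2, 0.0332 to 0.216 for Cops5, -0.143 to -0.0342 for Gprin1 and -0.0699 to 0.0454 for Map1b. In the third they ran from -0.0101 to 0.0686 for Cdk5, -0.118 to 0.0992 for Cdk5r2, -0.0583 to 0.0827 for Gprin1 and -0.0817 to 0.0112 for Map1b. The difference of log2 ratios of Cdk5r1 to Cdk5 ran from -0.259 to -0.164 in the first, -0.0372 to 0.0644 in the second and -0.252 to -0.145 in the third. That of Cdk5r2 to Cdk5 ran from -0.149 to -0.00274 in the first, 0.00266 to 0.0851 in the second and -0.119 to 0.0268 in the third. With 3 against 4 libraries the exact permutation test of a ratio has fewer assignments, and for Cdk5r1 to Cdk5 in the first comparison p ran from 0.0286 to 0.0571.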
